A study of Homo sapiens with 8 samples.

Results

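Kinesins are described here as a family of motor proteins whose genes were taken by symbol: protein-coding genes named KIF or KIFC followed by a number and at most a letter, with a mean of at least 0.5 CPM (counts scaled to a common library size) over the 8 libraries. The pattern matched 42 genes, and 37 of them, out of 58787 gene identifiers in the count table, reached the minimum. They comprised 12 mitotic kinesins, 13 kinesins of neuronal transport, 5 of cilia and Hedgehog signalling and 7 of other roles. KIF17, at 1.18 CPM, was the lowest gene inside the minimum, and KIF4B, at 0.423 CPM, was the highest outside it. KIF25, KIF12, KIF19 and KIF2B were the others left out, the last with no count in any library.

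The cells were IMR32, an established human neuroblastoma line with amplified MYCN. The treated group received CR31B at its IC50 for 6 h, and the control group received the vehicle, DMSO at 0.1%, for 6 h. CR31B is a rocaglate, a compound class that clamps the RNA helicase eIF4A onto RNA and so blocks translation initiation of many mRNAs. Each group held 4 libraries of 1 line, described as biological replicates, and nothing further says how the cultures were separated, so a p-value covers only the spread between these libraries. The series is concerned with TPX2, a spindle assembly factor, as a target downstream of eIF4A.

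Kinesins walk along microtubules by hydrolysing ATP, and most move towards the plus end. In dividing cells some of them slide spindle microtubules apart, shorten their ends, carry chromosomes and build the midzone where the cell is cut. In neurons others carry vesicles, mitochondria and mRNA along the axon, and a neuroblastoma line, being both neuronal in lineage and proliferating, uses both sets.

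In the 6 single-end libraries each of the 2 sets held genes that rose, genes that fell and genes that did not pass the test. Within the mitotic set, KIF11, KIF14, KIF4A and KIF18A rose by 1.34-fold to 1.48-fold with CR31B, KIF2C fell, and 6 of 12 did not pass. Within the transport set, all 3 heavy chains of conventional kinesin, KIF5A, KIF5B and KIF5C, rose, while KIF3C and KIF21B fell. The pair of libraries labelled replicate 1 showed the opposite direction for every gene that passed, and with those 2 libraries included no kinesin passed.

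Paired-end sequencing was used for replicate 1 of each group alone, while replicates 2 to 4 were read single-end, so replicate and layout cannot be told apart. Over all genes, the mean chi-square of counts between the replicate 1 library labelled CR31B and the single-end libraries was 9.48 to 17.3 for those labelled DMSO and 94.6 to 145 for those labelled CR31B. For the replicate 1 library labelled DMSO it was 88.9 to 109 and 8.01 to 20.8, so each lay nearer to the other group. Whether the 2 replicate 1 labels were exchanged was not tested. The labels were kept as given, and every 8-library value holds only under them. Total counts ran from 43687828 to 64715535 per library, of which the 37 kinesins took 228943 to 307067. As a check of the label, 13 of 13 sympathetic neuroblast markers had a mean of at least 1 CPM, with tyrosine hydroxylase (TH) low at 2.43 CPM, and SOX10 and CD3E, defining markers of Schwann cells and T cells, had no count in any library. CD68, a macrophage marker, also had none, but 81.7% of its exon length is shared on its own strand with another annotated gene, so its 0 says little. In the single-end libraries 23.8% of all genes tested were called higher with CR31B and 17.6% lower. The neuroblast markers did not move one way there: 6 of 13 rose, led by GATA3 (260 to 883 CPM, means of DMSO and CR31B) and HAND2 (680 to 1322 CPM), 4 fell (DBH, STMN2, CHGA and PHOX2A) and MYCN, TH and CHGB did not pass. Their sum stood at 6874 to 7496 CPM in the single-end CR31B libraries against 5647 to 5947 in the single-end DMSO libraries. MYCN was its largest part (means of 2428 CPM with DMSO and 2624 CPM with CR31B), while GATA3 and HAND2 differed most in CPM between the groups. In replicate 1 the sum stood at 5901 CPM under the CR31B label and 7437 under the DMSO label, and the part of these markers in the kinesin results was not tested. These are bulk samples, so a change in the share of cells in a state, such as mitosis, and a change of RNA per cell cannot be told apart.

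The promoters of some members that moved, and of others that did not, are shown to let the classes be compared in sequence. Many genes expressed late in the cell cycle carry a cell cycle genes homology region (CHR), searched here as TTTGAA, and boxes of the letters CCAAT, the site of the factor NF-Y. Both motifs were searched on both strands in the 250 bases before each start in RefSeq (GRCh38.p14), and 30 of the 37 genes had such a window. KIF13B, KIFC2, KIF21B, KIF5A, KIF27, KIF26B and KIFC3 had none. At most 150 bases nearest the start are printed, cut back to bases outside GENCODE exons, 5′ to 3′ on the strand of the gene, with the 2 motifs in capitals.
KIF11 (chr10:92592980-92593129, plus strand): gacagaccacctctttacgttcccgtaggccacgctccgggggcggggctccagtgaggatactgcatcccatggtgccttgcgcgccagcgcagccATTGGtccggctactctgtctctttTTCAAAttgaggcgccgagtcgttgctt
KIF4A (chrX:70289980-70290089, plus strand): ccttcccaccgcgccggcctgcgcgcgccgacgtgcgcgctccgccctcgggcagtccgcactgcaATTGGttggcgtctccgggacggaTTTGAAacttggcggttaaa
KIF14 (chr1:200620752-200620901, minus strand): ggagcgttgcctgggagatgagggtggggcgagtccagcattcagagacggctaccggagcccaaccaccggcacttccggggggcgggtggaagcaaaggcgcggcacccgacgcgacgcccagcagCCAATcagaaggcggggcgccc
KIF20B (chr10:89701440-89701589, plus strand): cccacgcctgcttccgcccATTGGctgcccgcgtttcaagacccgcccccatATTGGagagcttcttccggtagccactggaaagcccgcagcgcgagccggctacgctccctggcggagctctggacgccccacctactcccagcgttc
KIF5B (chr10:32056432-32056575, minus strand): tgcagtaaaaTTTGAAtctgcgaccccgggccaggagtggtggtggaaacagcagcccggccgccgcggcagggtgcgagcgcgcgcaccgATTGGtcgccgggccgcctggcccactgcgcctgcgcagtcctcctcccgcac

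In KIF11 the CCAAT box, read on the opposite strand, begins 53 bases before the start and the CHR letters begin 28 bases before it. KIF4A has the same order, with the box at 58 and the CHR letters at 34 bases. KIF14 has a CCAAT box at 22 bases and no CHR letters in its window, and KIF20B has 2 boxes, at 131 and 98 bases. KIF5B carries both motifs, but with the CHR letters upstream, at 140 bases, and the box at 59.

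Over the classes, counting a gene once if any of its windows held the motif, CCAAT was found in 10 of 12 mitotic genes and in 4 of 9 transport genes, against 37.0% of all genes with a window. CHR letters were found in 5 of 12 mitotic and 1 of 9 transport genes, against 16.1% of all genes. Both motifs were found in KIF11, KIF4A, KIF18A and KIF23 among the mitotic genes and in KIF5B among the transport genes, against 5.79% of all genes. A match of letters is a description and not a shown binding site. Of the 5 genes with both motifs, KIF11, KIF4A, KIF18A and KIF5B rose in the single-end libraries and KIF23 did not pass. Of the 25 genes with a window but not both motifs, 6 rose, 3 fell and 16 did not pass. No test of motif against response was run.

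Before any comparison, the level of each kinesin in the 3 single-end DMSO libraries was set per kilobase of merged exon, so that genes could be ordered. KIF5B, the ubiquitous heavy chain of conventional kinesin, was highest at 88.6 ± 3.39 CPM per kb (SD, n = 3). KIF21A, which restrains microtubule growth, followed at 55.2 ± 2.17 CPM per kb and KIF5C, a neuron-enriched heavy chain, at 54.2 ± 1.44, and these neighbours did not differ beyond their spread. KIF11, the motor that pushes spindle poles apart, came next at 48.5 ± 1.75 CPM per kb.

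The mitotic kinesins lay close together, from 9.88 ± 0.505 CPM per kb for KIF18A to 48.5 for KIF11. KIF2C, KIF20B, KIF23 and KIF14 formed a run from 22.8 to 21.5 CPM per kb in which each gene was within its SD of the next. The transport kinesins ranged far more widely. KIF1A, the carrier of synaptic vesicle precursors, stood at 27.5 ± 1.92 CPM per kb, KIF5A, the most neuron-restricted heavy chain, at 2.93 ± 0.276, and KIF17, a dendritic kinesin, at 0.275 ± 0.0369. KIF6, a kinesin of motile cilia, was lowest of the 37, at 0.104 ± 0.0272 CPM per kb. The plot of levels per kilobase shows this order.

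**Figure D1:**
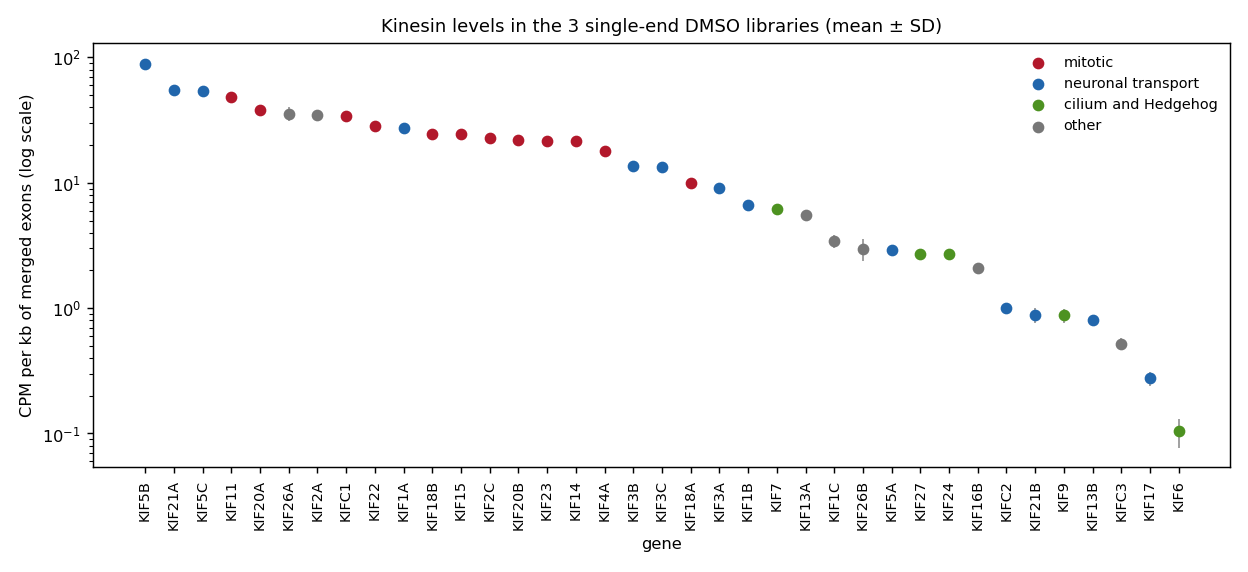
Level of each of the 37 kinesins, in CPM per kilobase of merged exon on a log scale, as mean and SD of the 3 single-end DMSO libraries, with genes ordered by level and coloured by class. The mitotic genes lie between 9.88 and 48.5, while the transport genes reach from 0.275 for KIF17 to 88.6 for KIF5B.

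With all 8 libraries as labelled and layout as a covariate, no kinesin passed an adjusted p of 0.05 in edgeR's quasi-likelihood test, and none of the 16518 genes tested did (0%). At an unadjusted p under 0.05, 1 kinesin passed, of 205 genes in all, and DESeq2 likewise called no kinesin. Adjusted p (edgeR, Benjamini-Hochberg) ran from 0.707 to 0.996 over the 37 kinesins. KIF11 differed by 0.27 ± 0.20 (SE) on the log2 scale, KIF5B by 0.28 ± 0.19 and KIF3C by -0.18 ± 0.13. The largest estimates were 0.54 ± 0.29 for KIF5A and 0.53 ± 0.33 for KIF26B. Each of these values joins single-end and replicate 1 differences of opposite sign.

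Within the single-end libraries, 18 of 37 kinesins passed (48.6%), beside 41.3% of the 16696 genes tested. Of the 18, 14 were higher with CR31B and 4 lower, where 23.8% of all genes were called higher and 17.6% lower. This split depended on scaling: it was 10 higher and 11 lower with upper quartile scaling, 11 and 9 with total counts alone, and 11 and 9 after offsets for GC content and length. The split over all genes moved too: 3968 of 6901 called genes were higher with TMM scaling, 3010 of 7519 with upper quartile and 3181 of 7375 with total counts. After the offsets it was 3261 of 6599. The single-end groups did not overlap for 22 kinesins, 16 with CR31B above and 6 with CR31B below, which is 59.5% against 52.3% of all genes. With replicate number as a block 24 kinesins passed, 19 higher and 5 lower, beside 51.1% of all genes. These shares are near the background, so the count says nothing particular about the family.

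All 18 genes that passed had the same sign in the replicate 2, 3 and 4 pairs, and all 18 had the opposite sign in the replicate 1 pair. The shared sign is largely given by the selection, because the calls came from those same single-end libraries. The share of all called genes with either pattern was not computed. A treatment by layout interaction passed for 17 kinesins, all 17 with opposite signs, beside 42.5% of all genes. The plot of differences by class shows the replicate 1 values falling on the other side of 0 from the filled circles. Directions in the following text are those of the single-end labels, and the replicate 1 value is given for only some of the genes described. Every called gene of the partner lists below also had the opposite sign in the replicate 1 pair.

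**Figure D2:**
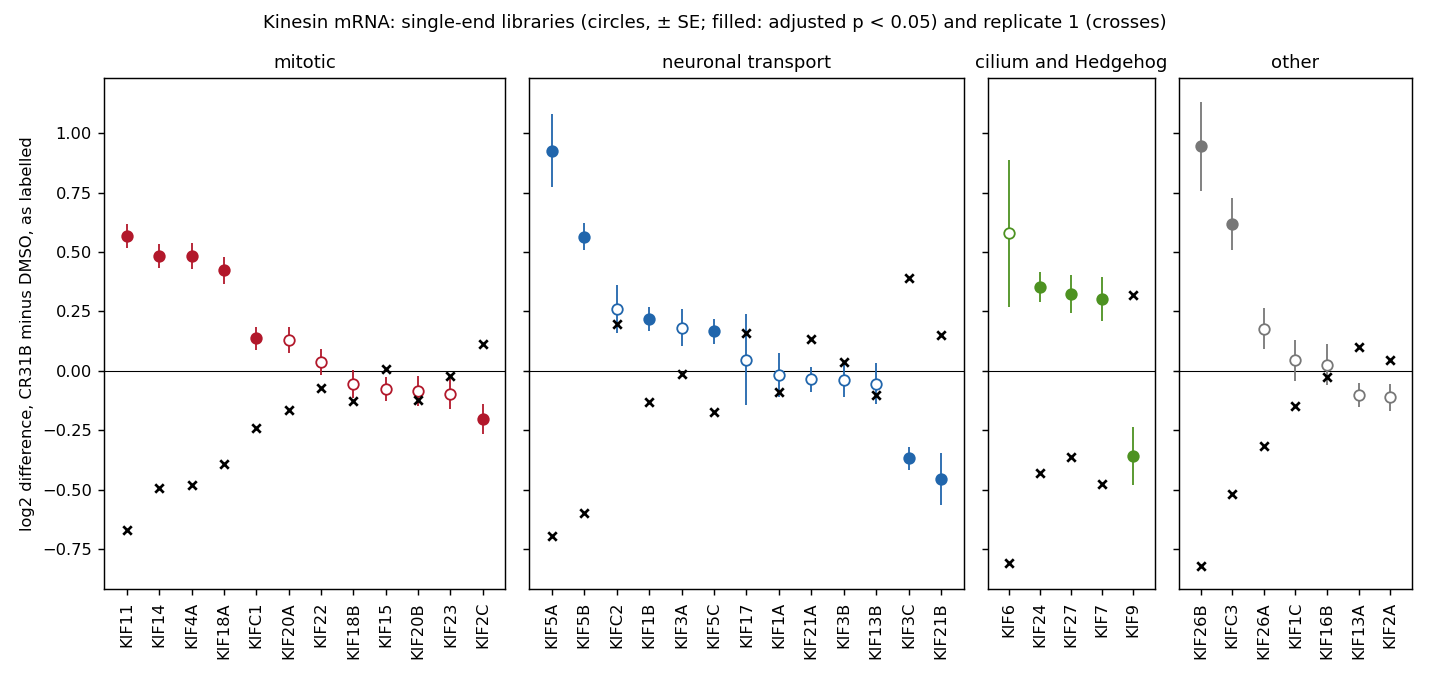
Log2 difference, CR31B minus DMSO as labelled, for each kinesin in 4 classes. Circles are the single-end estimates with their SE, filled where the adjusted p is under 0.05, and crosses are the replicate 1 pair, which has no replicate check; crosses mirror the filled circles, from KIF11 at 0.57 and -0.67 to KIF3C at -0.37 and 0.39.

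Among the mitotic kinesins 5 rose, 1 fell and 6 did not pass, with a median log2 difference of 0.08 over the 12, beside -0.0070 over all genes tested. With upper quartile scaling the median was -0.01 and the split was 4 higher and 5 lower, and the median of all genes itself moved to -0.10. The summed level of the 12 was 1659 to 1781 CPM in the single-end CR31B libraries and 1496 to 1555 CPM in the single-end DMSO libraries. In replicate 1 the sum was 1523 CPM under the CR31B label and 1835 CPM under the DMSO label. Such a sum weighs genes of high CPM most: KIF11 alone averaged 346 CPM with CR31B and 236 CPM with DMSO in the single-end libraries.

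KIF11 (chr10:92593286-92655395, plus strand), which crosslinks and slides antiparallel microtubules to make the spindle bipolar, read 341, 338 and 360 CPM in CR31B replicates 2, 3 and 4 and 227, 243 and 237 CPM in the matching DMSO libraries. The groups were far apart: the lowest CR31B library stood well above the highest DMSO library. The log2 difference was 0.57 ± 0.05 (SE), a 1.48-fold rise, with an edgeR adjusted p of 1.55e-05. In replicate 1 the library labelled CR31B read 231 CPM, inside the single-end DMSO range, and the one labelled DMSO read 367 CPM, above every single-end CR31B library. KIF15, which can back up KIF11 in keeping the spindle bipolar and is brought to it by TPX2, did not follow: it read 129, 116 and 121 CPM with CR31B and 131, 130 and 129 CPM with DMSO. Its log2 difference was -0.08 ± 0.05, with an edgeR adjusted p of 0.255.

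The midzone and cytokinesis motors divided. KIF14, which brings citron kinase to the midbody, read 206, 223 and 222 CPM with CR31B against 155, 160 and 154 CPM with DMSO, a 1.4-fold rise. KIF4A, a chromosome-bound kinesin that sets midzone length with PRC1, read 110, 110 and 116 CPM against 76.5, 81.8 and 83.9 CPM, also a 1.4-fold rise. Neither gene's groups overlapped, and the edgeR adjusted p was 3.95e-05 for KIF14 and 6.1e-05 for KIF4A. Reads of KIF4A may be shared with KIF4B, a near-identical intronless copy, and how the counting split them is not given in the sources used here.

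KIF20A, which carries the chromosomal passenger complex to the midzone, read 161, 155 and 172 CPM with CR31B and 145, 150 and 153 CPM with DMSO. All CR31B values lay above the DMSO values, but by little: the log2 difference was 0.13 ± 0.05 with an edgeR adjusted p of 0.0803. With replicate number as a block it passed, at an edgeR adjusted p of 0.0205. KIF23, the motor subunit of centralspindlin, read 138, 121 and 135 CPM with CR31B and 133, 149 and 145 CPM with DMSO, so the groups overlapped. KIF20B, which acts late in cytokinesis, read 141, 131 and 155 CPM against 156, 153 and 146 CPM and overlapped as well. The edgeR adjusted p was 0.25 for KIF23 and 0.32 for KIF20B. Both genes, and KIF15, were called lower when scaled by upper quartile or by total counts and also with GC and length offsets, where the log2 difference was -0.22 for KIF23, -0.28 for KIF20B and -0.20 for KIF15 (edgeR adjusted p 0.0286, 0.00542 and 0.0253).

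The kinesins that act on chromosomes and microtubule ends also went separate ways. KIF18A, which damps the swing of chromosomes at the metaphase plate, read 59.3, 61.8 and 63.0 CPM with CR31B and 48.4, 46.3 and 43.7 CPM with DMSO, a 1.34-fold rise without overlap (edgeR adjusted p 0.000195). KIF2C, which depolymerises microtubules to correct faulty attachments, read 75.1, 65.6 and 74.0 CPM against 79.1, 87.6 and 82.8 CPM. It fell to 0.868-fold, with an edgeR adjusted p of 0.0249, and was the only mitotic kinesin called lower with TMM scaling. Leaving out CR31B replicate 3, DMSO replicate 3 or DMSO replicate 4, or adding GC and length offsets, ended that call, with an adjusted p of up to 0.122 over the alternatives.

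KIF18B, which shortens astral microtubules, read 116, 101 and 111 CPM with CR31B and 111, 114 and 120 CPM with DMSO. KIF22, a chromosome-arm motor, read 133, 118 and 127 CPM against 121, 124 and 126 CPM. Both pairs of groups overlapped, and the edgeR adjusted p was 0.489 and 0.605, although KIF18B was called lower under upper quartile scaling (log2 -0.15, edgeR adjusted p 0.0358). KIFC1, a minus-end motor that gathers extra centrosomes, read 131, 120 and 125 CPM against 114, 117 and 113 CPM, a 1.1-fold rise just past the threshold at an edgeR adjusted p of 0.0454. That call was lost in 13 of 19 alternatives, among them RLE scaling, DESeq2 and omission of CR31B replicate 2 or 4 or of any single-end DMSO library.

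In replicate 1 the 6 mitotic genes that had passed showed the opposite sign, while KIF18B, KIF20B and KIF23, which had not passed, kept theirs. KIF14 read 161 CPM under the CR31B label and 226 under DMSO, KIF4A 82.7 and 115 CPM, and KIF18A 48.3 and 63.5 CPM. KIF2C, the gene that fell in the single-end libraries, read 85.5 and 78.9 CPM. The interaction with layout passed for 5 of the 12, namely KIF11, KIF14, KIF4A, KIF18A and KIFC1, and KIF2C missed the threshold at an edgeR adjusted p of 0.0563.

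**Figure D3:**
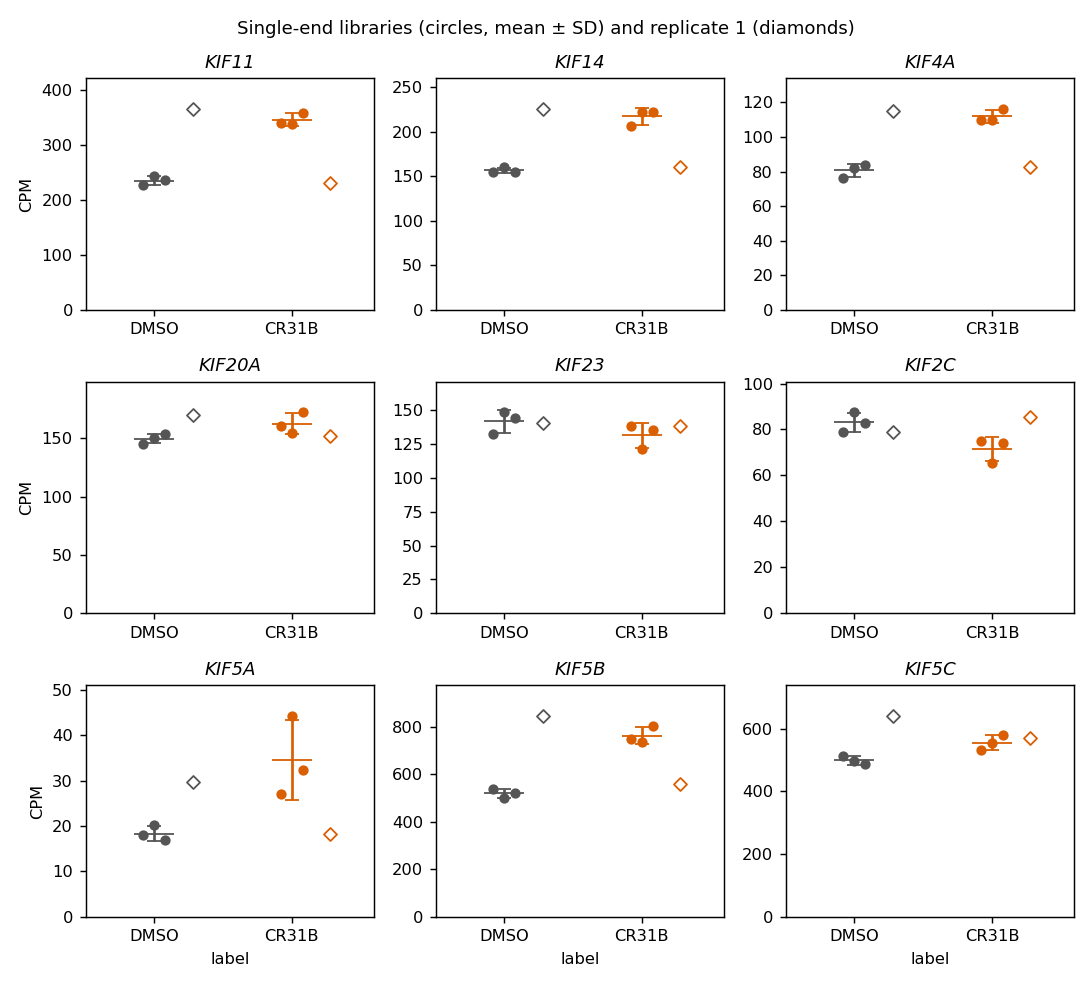
CPM in each library for 6 mitotic kinesins and the 3 conventional kinesin heavy chains, by label. Filled circles are the single-end libraries with their mean and SD, and open diamonds are replicate 1. For KIF11 the DMSO diamond, at 367 CPM, stands above every CR31B circle and the CR31B diamond, at 231 CPM, stands among the DMSO circles.

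Of the 13 transport kinesins 4 rose, 2 fell and 7 did not pass, with a median log2 difference of 0.05. The split was 2 higher and 3 lower, with a median of -0.05, under upper quartile scaling, and the median was -0.03 on total counts and -0.0038 once GC and length were offset. Their summed level was 2624 to 2853 CPM in the single-end CR31B libraries and 2381 to 2501 CPM in the single-end DMSO libraries, and in replicate 1 it was 2666 under the CR31B label and 3002 under the DMSO label. Much of the single-end difference came from KIF5B, which averaged 764 CPM with CR31B and 521 CPM with DMSO. No test of the transport class against the mitotic class was run, because the genes of each class are not replicates.

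Conventional kinesin is a dimer of heavy chains, and all 3 heavy chain genes rose, by unequal amounts. KIF5B (chr10:32009010-32056431, minus strand) read 751, 738 and 803 CPM in CR31B replicates 2, 3 and 4 and 540, 500 and 522 CPM in the matching DMSO libraries. No library of either group came near the other, and the rise was 1.48-fold (log2 0.56 ± 0.06, edgeR adjusted p 3.04e-05). KIF5A (chr12:57549998-57586632, plus strand), mutated in hereditary spastic paraplegia, read 27.0, 44.3 and 32.3 CPM against 17.9, 20.2 and 16.9 CPM. The rise was larger, at 1.9-fold (log2 0.93 ± 0.15, edgeR adjusted p 0.000835), but the CR31B libraries were spread widely, with replicate 3 the highest.

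KIF5C rose less, reading 532, 555 and 580 CPM against 513, 499 and 487 CPM, a 1.12-fold difference with an edgeR adjusted p of 0.0291. Its call was lost in 9 of 19 alternatives, including GC and length offsets, the scaling by upper quartile, the scaling by total counts and the omission of CR31B replicate 4 or DMSO replicate 3 or 4. In replicate 1 KIF5B read 560 CPM under the CR31B label and 848 under DMSO, KIF5A 18.3 and 29.6 CPM, and KIF5C 569 and 642 CPM. For all 3 genes the library labelled DMSO was therefore the higher of that pair.

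The vesicle carriers of the KIF1 group moved little. KIF1A read 476, 383 and 493 CPM with CR31B and 479, 422 and 477 CPM with DMSO, with overlapping groups and an edgeR adjusted p of 0.906. KIF1B, which carries mitochondria and synaptic vesicle precursors and lies on the short arm of chromosome 1 in a region often lost in neuroblastoma, read 131, 137 and 142 CPM against 122, 118 and 116 CPM. It rose 1.16-fold without overlap, at an edgeR adjusted p of 0.00618. The call was lost with upper quartile scaling, with GC and length offsets and without replicate 4, the adjusted p reaching 0.378 over the alternatives. In replicate 1 KIF1B read 128 CPM under the CR31B label and 140 CPM under the DMSO label.

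The subunits of heterotrimeric kinesin, in which KIF3A pairs with KIF3B or KIF3C, did not move together. KIF3C, the neuronal partner, read 65.4, 67.2 and 64.8 CPM with CR31B and 86.9, 88.3 and 81.7 CPM with DMSO. All 3 treated libraries lay below all 3 controls, and the gene fell to 0.775-fold (log2 -0.37 ± 0.05, edgeR adjusted p 0.000216). The replicate 1 pair mirrored it, with 88.0 CPM under the CR31B label and 67.2 under DMSO. KIF3B, the partner used in cilia and axons, read 87.3, 72.0 and 81.9 CPM against 82.9, 81.4 and 85.6 CPM and overlapped.

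KIF3A read 67.7, 64.3 and 78.0 CPM with CR31B and 57.9, 64.4 and 64.1 CPM with DMSO, overlapping by a single library. Its edgeR adjusted p was 0.0809, and 0.0202 with replicate as a block. KIFAP3, the non-motor subunit that binds this dimer to cargo, differed by 0.32 ± 0.12 on the log2 scale (edgeR adjusted p 0.0483). That call was lost with scaling by RLE, upper quartile or total counts (edgeR adjusted p 0.0507, 0.16 and 0.138). A filter at 1 CPM and GC and length offsets also ended it (edgeR adjusted p 0.0677 and 0.23). So did omission of CR31B replicate 3 or 4 or of DMSO replicate 2 or 4.

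KIF21A and KIF21B are paralogues that pause microtubule growth, and with TMM scaling KIF21B passed and KIF21A did not. KIF21A read 525, 542 and 554 CPM with CR31B and 577, 563 and 534 CPM with DMSO (edgeR adjusted p 0.623), and it was called lower under upper quartile scaling (log2 -0.13, edgeR adjusted p 0.0461) and with GC and length offsets (log2 -0.23, edgeR adjusted p 0.0101). KIF21B read 7.55, 7.38 and 8.34 CPM against 9.997, 9.84 and 12.4 CPM, a fall to 0.729-fold without overlap (edgeR adjusted p 0.00778). Without replicate 4 its adjusted p was 0.0509. Both replicate 1 libraries read lower than every single-end library for KIF21B, at 6.58 CPM under the CR31B label and 5.92 under DMSO, so layout and level moved together there. The difference between the paralogues was not tested.

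The remaining transport genes, KIF13B, KIF17 and KIFC2, averaged 1.18 to 9.07 CPM over the 8 libraries. KIFC2, a neuronal minus-end motor, was the only kinesin with an unadjusted p under 0.05 in the 8 libraries and the same direction in replicate 1, at 5.30, 5.18 and 5.54 CPM with CR31B and 4.54, 4.60 and 4.34 CPM with DMSO. In replicate 1 it read 5.17 CPM under the CR31B label and 4.50 under DMSO. Its edgeR adjusted p was 0.0591 in the single-end libraries, 0.0355 with replicate as a block and 0.707 over all 8. Exons on the opposite strand overlap 17.8% of the KIFC2 exon length, and whether the counting used strand is not given in the sources used here. KIFC2 was singled out after its values were seen.

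**Figure D4:**
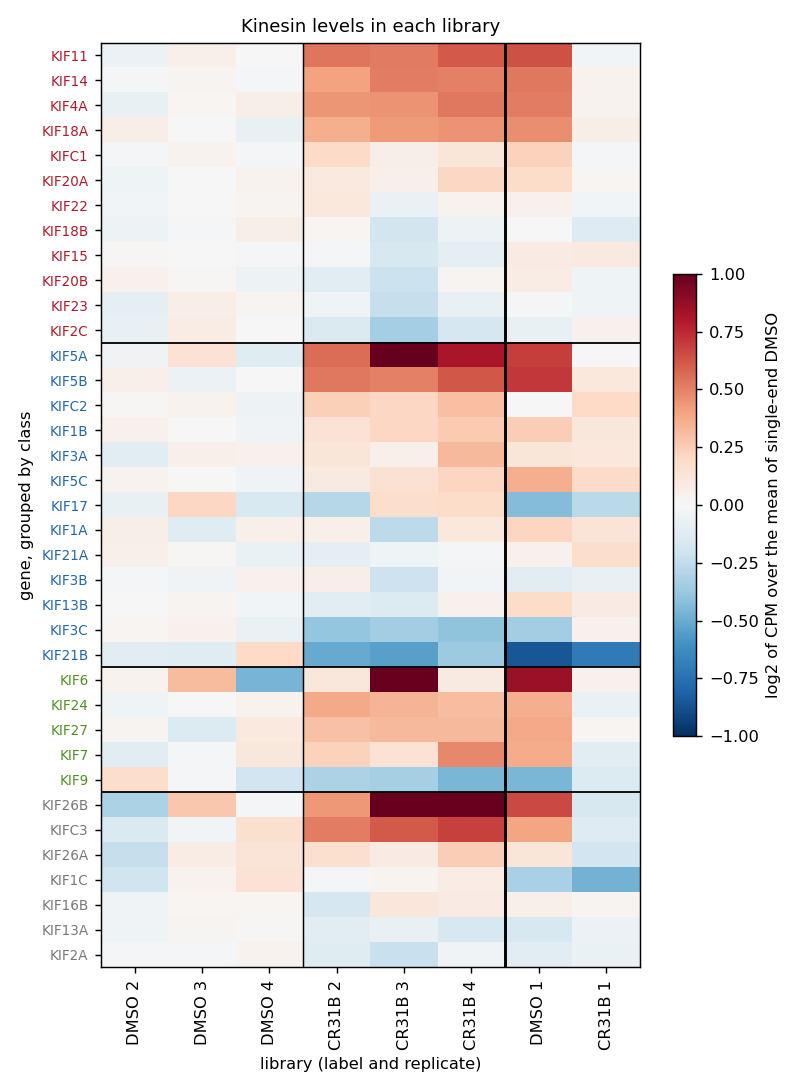
Level of each kinesin in each library as log2 of CPM relative to the average single-end DMSO library, on a colour scale from -1 to 1, with values beyond those limits drawn at the end colours, in rows grouped by class and columns by label and replicate. The DMSO library of replicate 1 carries the colours of the single-end CR31B libraries for most genes that passed, such as KIF11 and KIF5B, and the CR31B library of replicate 1 is near the single-end DMSO libraries.

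Among the 5 cilium and Hedgehog kinesins 3 rose and 1 fell, beside 23.8% of all genes called higher and 17.6% called lower, a background that holds for every class count here. KIF24, which holds back cilium assembly at the centriole, read 21.4, 20.9 and 20.4 CPM with CR31B and 16.0, 16.5 and 16.9 CPM with DMSO, a 1.28-fold rise (edgeR adjusted p 0.00151). KIF7, the ciliary regulator of GLI transcription factors, read 36.3, 34.3 and 43.2 CPM against 28.8, 30.6 and 33.5 CPM (edgeR adjusted p 0.023). Its paralogue KIF27 read 17.0, 17.4 and 17.4 CPM against 14.2, 12.7 and 14.9 CPM (edgeR adjusted p 0.00839). All 3 had CR31B above DMSO without overlap, and all 3 were lower under the CR31B label in replicate 1, with log2 differences of -0.43, -0.48 and -0.36.

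KIF9, a kinesin of motile cilia, fell to 0.78-fold, reading 4.10, 4.05 and 3.72 CPM against 5.78, 5.08 and 4.47 CPM (edgeR adjusted p 0.0383). That call was lost on omission of any one of the single-end libraries except DMSO replicate 4, and of each replicate pair, the adjusted p reaching 0.177. The KIF7 call was lost with upper quartile or total count scaling and without CR31B replicate 4 or DMSO replicate 2 or 3. The KIF27 call was lost with GC and length offsets and without replicate 3. Exons on the opposite strand overlap 17.9% of KIF9, 13.1% of KIF27 and 11.8% of KIF7. KIF6 had 46 to 164 counts per library, and its edgeR adjusted p was 0.161, or 0.0243 with replicate as a block.

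Of the 7 other kinesins 2 rose and 5 did not pass, and with upper quartile scaling 2 were called higher and 2 lower. KIF26B, an atypical kinesin with no known motility that acts in cell adhesion and WNT5A signalling, read 57.9, 101 and 87.0 CPM with CR31B and 34.5, 51.7 and 42.5 CPM with DMSO. It rose 1.93-fold (log2 0.95 ± 0.19, edgeR adjusted p 0.00239), the largest fold of the 37, and replicate 3 was the highest single-end library in both groups. KIFC3, a minus-end motor of cell junctions, read 7.13, 7.64 and 8.06 CPM against 4.52, 4.91 and 5.58 CPM, a 1.53-fold rise (edgeR adjusted p 0.00135). In replicate 1 KIF26B read 38.3 CPM under the CR31B label and 67.7 under DMSO, and KIFC3 read 4.59 and 6.57 CPM.

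KIF5A, KIF26B and KIFC3 were the 3 kinesins that both passed and reached 1.5-fold. KIF2A, the depolymerising relative of KIF2C, differed by -0.11 ± 0.06, with an edgeR adjusted p of 0.142, or 0.0361 with replicate as a block. KIF26A, which restrains GDNF signalling in enteric neurons, differed by 0.18 ± 0.09, with an edgeR adjusted p of 0.126, or 0.0286 with the block. KIF13A, KIF16B and KIF1C, carriers of endosomes and vesicles, had log2 differences of -0.10, 0.03 and 0.04 and did not pass with or without the block.

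Genes that work with the kinesins were taken from 3 lists that hold none of the 37 kinesins. Of 22 spindle and midzone partners tested, 7 rose, 4 fell and 11 did not pass, with a median of 0.06, and 11 of 22 called is 50% beside 41.3% of all genes. With upper quartile scaling 7 were called higher and 8 lower, and the median was -0.03. TPX2, which loads KIF11 and KIF15 onto spindle microtubules and is the gene of the series title, rose most (log2 1.35 ± 0.06, edgeR adjusted p 5.07e-07). In the replicate 1 pair TPX2 differed by -1.31, and over all 8 libraries its edgeR adjusted p was 0.707. These are mRNA values, and TPX2 protein was not measured in these libraries. ASPM, a spindle pole protein, rose by 0.57, CKAP5, a microtubule polymerase, by 0.54 and ECT2, which is activated by centralspindlin to drive cytokinesis, by 0.47. INCENP rose by 0.44 and its partners in the chromosomal passenger complex, BIRC5 and CDCA8, fell by 0.42 and 0.23 on the log2 scale, while AURKB, its kinase, differed by -0.0046.

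RACGAP1, the other subunit of centralspindlin, differed by 0.09 (edgeR adjusted p 0.17) and CENPE, the kinesin of kinetochores, by -0.11 (edgeR adjusted p 0.145). CENPE passed as lower under other settings: its value was -0.21 under upper quartile scaling and -0.19 on total counts. After offsets for GC and length it was -0.35, with or without the replicate block. PRC1, the midzone crosslinker that KIF4A binds, had a mean of 0.128 CPM and was not tested; 57.6% of its exon length is shared on its own strand with another annotated gene. Proliferation markers were mixed in the same libraries: MKI67 rose by 1.02, TOP2A differed by 0.0044, PCNA by -0.16 and CCNB1 fell by 0.17 on the log2 scale. The part of cell cycle state in the kinesin values was not tested.

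Of 23 light chains, adaptors and regulators of transport kinesins, 7 rose, 2 fell and 14 did not pass, with a median of 0.10, and 39.1% called beside the same 41.3%. With upper quartile scaling 4 were called higher and 6 lower, and the median was 0.0040. GRIP1, which links KIF5 heavy chains to glutamate receptors, rose most, reading 37.6, 39.8 and 40.1 CPM with CR31B against 19.0, 22.6 and 23.5 CPM with DMSO (log2 0.86 ± 0.08, edgeR adjusted p 1.96e-05). MADD, the adaptor of KIF1A and KIF1B, rose by 0.37, and MAPK8IP3, an adaptor of conventional kinesin, fell by 0.29 on the log2 scale. The light chain KLC1 differed by -0.14 and KIFBP, which holds several kinesins inactive, by 0.11, and neither passed with TMM scaling (edgeR adjusted p 0.213 and 0.142). KLC1 was called lower with upper quartile scaling and with GC and length offsets (log2 -0.24 and -0.25, edgeR adjusted p 0.0454 and 0.0416). KIFBP was called higher without CR31B replicate 3 (edgeR adjusted p 0.0337).

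Dynein and dynactin, which carry cargo towards the minus end, were tested as 24 genes, of which 6 rose, 8 fell and 10 did not pass, with a median of -0.10, and 58.3% called beside 41.3% of all genes. With upper quartile scaling 5 were called higher and 12 lower, and the median was -0.20. PAFAH1B1 (LIS1), which activates dynein, read 641, 640 and 632 CPM with CR31B against 292, 300 and 303 CPM with DMSO, an estimate above that of any kinesin (log2 1.11 ± 0.05, edgeR adjusted p 5.07e-07). The adaptor HOOK3 rose by 0.75 and the light chain DYNLL2 by 0.51. The 8 that fell were DYNC1LI2, DYNLL1, DYNLRB1, DCTN2, DCTN3, DCTN4, NDE1 and BICD2, and the heavy chain DYNC1H1 differed by -0.07. In replicate 1 the signs of PAFAH1B1, HOOK3 and DYNLL2 were opposite, at -1.11, -0.82 and -0.64.

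**Figure D5:**
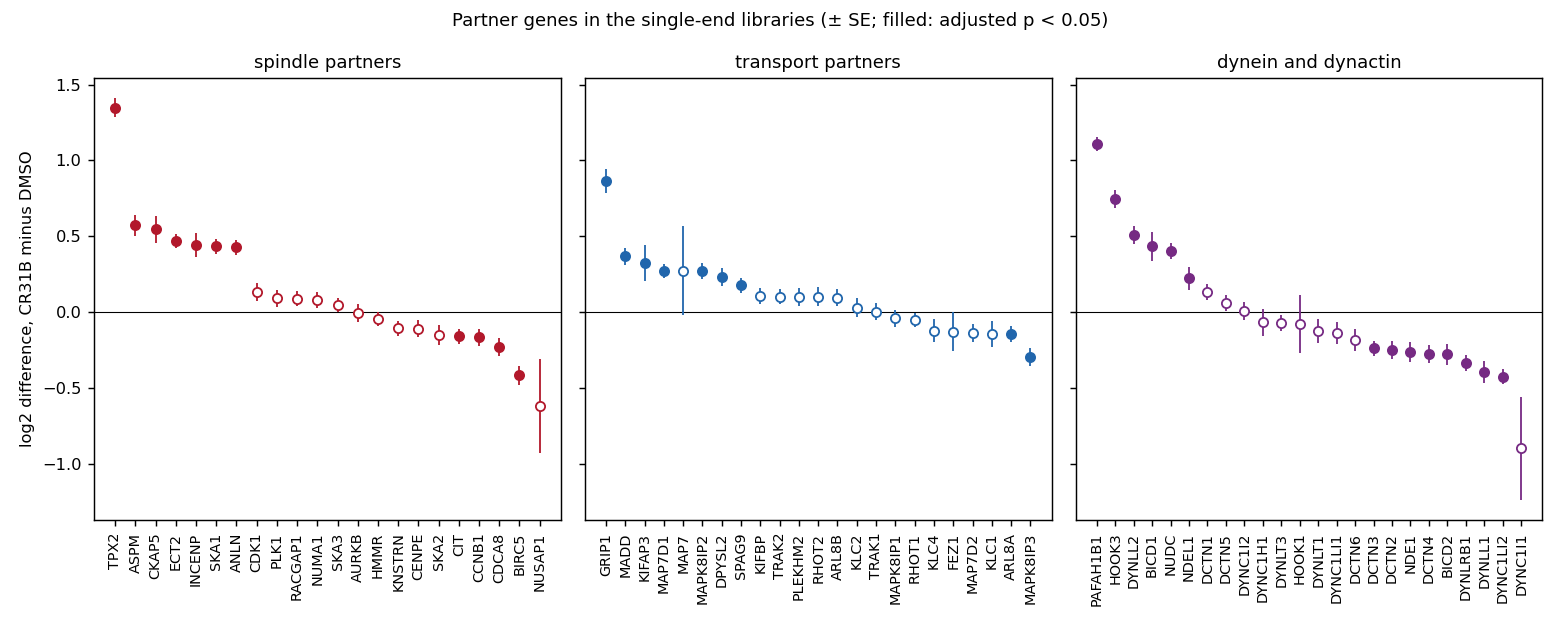
Log2 difference, CR31B minus DMSO, with SE in the single-end libraries for the tested genes of 3 partner lists, ordered by value within each list and filled where the adjusted p is under 0.05. TPX2 at 1.35, GRIP1 at 0.86 and PAFAH1B1 at 1.11 lead their lists, and 8 of the 24 dynein and dynactin genes are filled below 0.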

How the data were processed

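RNA sequencing libraries of IMR32 cells, 4 per group, were analysed from 1 table of raw counts per gene as deposited by the authors, with no normalisation. Per the labels' protocols, 250 ng of RNA was used, amplified for 15 PCR cycles and run for 75 cycles. The submitters' processing notes name STAR 2.7.2b, FastQC 0.11.7, edgeR 3.36.0, limma 3.50.3 and GRCh38, with no roles given, and the counting tool, strand setting and annotation are not given in the sources used here. Coordinates, exon lengths and symbols come from GENCODE 29 (GRCh38), which held 58515 of the 58787 identifiers. No molecular identifiers are described, so depth speaks to counting error alone.

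The test was edgeR's two-sided quasi-likelihood test (edgeR 4.0.16, R 4.3.3, glmQLFit and glmQLFTest) after filterByExpr and TMM scaling, with Benjamini-Hochberg adjustment over all tested genes and a threshold of 0.05. The main fit took all 8 libraries with layout as a covariate; the 6 single-end libraries were fitted alone, and an interaction of treatment with layout was fitted. CPM values are TMM-scaled, and the difference within a pair of libraries with the same number was taken on log2 CPM, prior count 1. Same-numbered single-end libraries deviated together (correlations of 0.21, 0.38 and 0.16; over all 8 libraries -0.51 to 0.17), so single-end numbers were taken to pair them, and values with replicate as a block are printed where they change a call. No 2 libraries agreed within sampling noise.

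Named with values were every mitotic kinesin, members of the other classes with an adjusted p under 0.05 and an absolute log2 difference of at least 0.3 in the single-end libraries, and the 5 transport kinesins of highest CPM, which gave 26 genes, and in each partner list 3 genes of at least 5 CPM with the largest called difference, besides CENPE, TPX2, RACGAP1, PRC1, KLC1, KIFAP3 and KIFBP. Some further genes were named after their values were seen. Members and lists were chosen with earlier results of these data known. The fits were tested on simulated data. Alternatives were other scalings, filters, tools (DESeq2 1.42.0, limma 3.58.1), GC and length offsets, the block and omission of libraries.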

Additional observations from a re-analysis of the deposited data

Results flagged for a closer look

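A treatment by layout interaction passed for 17 of 37 kinesins in edgeR, so their difference departed between the paired-end and the single-end libraries. The same test passed for 42.5% of all genes, so the count says nothing particular about the family. Replicate 1 is the only paired-end pair, and which of replicate, layout or label goes with the departure cannot be told apart.

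Of 52 gene and group combinations checked among the 26 named kinesins, 7 held a library far from the other 3. In all 7 the distant library was replicate 1. A chance rate of about 1 in 20 applies to independent groups not chosen on these values. Some of the genes were named because they passed in the single-end libraries, so that rate is no yardstick here. The share over all genes was not computed. The gap to the nearest library, as a share of the group's range, was 0.831 for KIF11, 0.888 for KIF27 and 0.896 for KIF3C in the CR31B group. In the DMSO group it was 0.88 for KIF11, 0.924 for KIF14, 0.886 for KIF5B and 0.83 for KIF5C.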

How the results depend on the processing

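Over the 8 libraries as labelled, no kinesin passed under any change of scaling, filter, tool, offsets, layout term or replicate block (0 with the block), and omission of a library or pair gave 0 to 18, the 18 coming without CR31B replicate 1, DMSO replicate 1 or both, as in the single-end libraries alone. In the single-end libraries the count of 18 was 24 with the replicate block and 3 at 1.5-fold or more. It ranged from 11 to 18 on omission of a library or pair, the lowest without replicate 4, where transport kinesins fell from 6 to 3 (range 3 to 7). Without replicate 4, 3981 of 17012 genes tested were called, against 6901 of 16696 with all 6 single-end libraries. The mitotic count of 6 became 10 with the replicate block plus GC and length offsets, split 6 higher and 4 lower, and the mitotic median became -0.012 with upper quartile scaling. The causes were not tested. The higher against lower split of all kinesins was 19 and 5 with the block and 13 and 11 with the block plus offsets. Over all genes, 4686 of 8540 calls were higher with the block and 4044 of 8572 with the block plus offsets. Of 18 named calls, 10 held in all 19 alternatives: KIF11, KIF14, KIF4A, KIF18A, KIF5A, KIF5B, KIF3C, KIF24, KIF26B and KIFC3. Over the 26 named genes no alternative reversed a call, 50 values lost the threshold and 20 gained it. The replicate block changed no kinesin call other than those printed beside it. For KIF17 and KIF6, with as few as 38 and 46 counts in a library, depth limits what could be detected.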
